A study of Mus musculus with 16 samples.

Results

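Transforming growth factor beta (TGF-beta) ligands, their receptors and their latent binding proteins are encoded by a small set of genes that were chosen by symbol and not by any measured value. They are the ligands Tgfb1, Tgfb2 and Tgfb3, the receptors Tgfbr1, Tgfbr2 and Tgfbr3, and the latent TGF-beta binding proteins Ltbp1, Ltbp2, Ltbp3 and Ltbp4, 10 of the 31055 features counted. The study profiled single cells of the aorta, from root to arch, in 16 male mice of the 129S6/SvEv background, with 1 library per mouse. Every mouse carried the Myh11-CreER transgene, a Cre driven by a smooth muscle promoter and active after tamoxifen, and every mouse received tamoxifen for 5 days at 6 weeks of age. Mice with loxP-flanked Smad3 alleles (Smad3SmKO) lost Smad3, a transcription factor that TGF-beta receptors activate, in vascular smooth muscle cells (VSMCs), and mice with unflanked alleles (Smad3+/+) served as controls. Aortas were taken 10 weeks after deletion (2 Smad3+/+ and 2 Smad3SmKO mice) or 18 weeks after it (5 Smad3+/+ and 7 Smad3SmKO mice). Some mice also carried an EGFP-L10a tracer of smooth muscle. The Cre acts in all smooth muscle and not in the aorta alone, so the deletion is not limited to the vessel wall that was sampled.

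TGF-beta is secreted in a latent form, in which the mature dimer is held by its own propeptide. LTBP1, LTBP3 and LTBP4 bind that propeptide and tether the complex to fibrillin microfibrils of the matrix, while LTBP2 binds microfibrils and does not bind latent TGF-beta. Integrins, thrombospondin and proteases release the ligand, which joins the type II receptor TGFBR2 to the type I receptor TGFBR1 so that SMAD2 and SMAD3 are phosphorylated. TGFBR3, or betaglycan, is a co-receptor that presents ligand, TGF-beta2 above all. Variants of TGFB2, TGFB3, TGFBR1, TGFBR2 and SMAD3 are known causes of Loeys-Dietz syndrome, a disorder with aneurysm of the aortic root.

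Unique molecular identifiers (UMIs), each standing for 1 captured RNA molecule read at its 3' end, were summed per library over the cells of 4 classes. A VSMC held at least 5 Myh11 UMIs and more of them than Dcn UMIs, a fibroblast at least 5 Dcn UMIs and more of them than Myh11 UMIs, an endothelial cell at least 2 Pecam1 plus Cdh5 UMIs, and a leukocyte at least 2 Ptprc plus Tyrobp UMIs. Cells that met exactly 1 rule were used, which gave 8648 VSMCs, 33954 fibroblasts, 1226 endothelial cells and 2946 leukocytes of 50858 cells kept. The rules as written were met by 8950, 36066, 3303 and 3357 cells in the same order. Endothelial levels therefore rest on a minority of the cells that met the endothelial rule. Levels (CPM) are the UMIs of a gene per 1000000 UMIs of all genes in the class sum. Totals ran from 12539539 to 52843031 UMIs per library, and libraries shared at most 0.363% of the barcodes of the smaller one. The labels were borne out by markers that no rule used, since the VSMC marker list (Acta2, Tagln, Cnn1 and others) had a median of 62010 CPM in VSMCs and medians at most 3.85% of that in the other classes (single sums reached 13240 CPM in fibroblasts and 5809 CPM in endothelium), while the fibroblast marker list had medians at 13.1% of its fibroblast median in VSMCs, 6.92% in endothelium and 1.16% in leukocytes. Smad3 itself gave 5.04 ± 0.41 CPM (SD, n = 2) in Smad3+/+ and 6.58 ± 1.89 CPM (SD, n = 2) in Smad3SmKO VSMCs at 10 weeks, and 7.08 ± 2.97 (SD, n = 5) and 9.52 ± 4.72 CPM (SD, n = 7) at 18 weeks. Whether the 3' tags fall in the deleted part was not tested, so these levels check neither the labels nor the deletion. The paper checked the deletion by qPCR and immunoblot and found less Smad3 RNA and protein in Smad3SmKO aortas. Green fluorescent protein (GFP) transcripts went against the tracer label in 4 libraries, namely both Smad3SmKO libraries of 10 weeks, labelled as without tracer yet holding 246 and 165 GFP UMIs, and replicates 4 and 5 of the 18-week Smad3+/+ group, labelled with tracer yet holding 0. Results are also given without these libraries where that changed a call.

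The promoters of 8 members were found among RefSeq windows of build GRCm38.p6, here the 250 bases before each annotated start (Tgfb3 and Tgfbr3 had no entry). SMAD3 and SMAD4 bind the letters CAGAC, read on either strand (GTCTG on the other). These letters stood in 7 of the 12 windows of the members and in 42.2% of all 32851 windows. Both members whose levels were higher in VSMCs than in every other class, Tgfb2 and Ltbp1, had such letters, so their windows are printed 5' to 3' with each match in capitals. The Tgfb2 window is chr1:186705990-186706239, minus strand. Ltbp1, on the plus strand, has an upstream start with the window chr17:75005279-75005528 and a downstream start inside the gene with the window chr17:75178531-75178780, and 3' counts cannot tell the transcripts of these starts apart.
Tgfb2: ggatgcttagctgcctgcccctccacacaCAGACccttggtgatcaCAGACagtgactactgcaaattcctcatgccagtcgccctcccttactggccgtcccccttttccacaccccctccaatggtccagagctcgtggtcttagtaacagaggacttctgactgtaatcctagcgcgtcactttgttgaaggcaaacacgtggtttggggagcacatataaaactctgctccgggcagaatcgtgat
Ltbp1, upstream start: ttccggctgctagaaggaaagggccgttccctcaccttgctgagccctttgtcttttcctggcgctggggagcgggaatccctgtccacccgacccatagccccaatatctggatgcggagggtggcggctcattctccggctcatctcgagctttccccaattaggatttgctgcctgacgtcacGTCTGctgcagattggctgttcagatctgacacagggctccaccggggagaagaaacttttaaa
Ltbp1, downstream start: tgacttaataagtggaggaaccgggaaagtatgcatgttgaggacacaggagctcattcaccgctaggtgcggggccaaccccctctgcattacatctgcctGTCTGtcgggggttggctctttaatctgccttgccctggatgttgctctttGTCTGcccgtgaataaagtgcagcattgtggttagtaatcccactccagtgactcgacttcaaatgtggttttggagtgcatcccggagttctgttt
The upstream Ltbp1 window also held TGACGTCA, the cyclic AMP response element, which occurred in 1.55% of all windows and in no other window of the members. The palindromic Smad element GTCTAGAC, the AP-1 site TGACTCA or TGAGTCA, the TEAD site CATTCC and the CArG box, searched on both strands, occurred in 0.167%, 4.46%, 12.6% and 1.47% of all windows and in none of the members'. A match is a description of the letters and not a measured binding site.

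Tgfb2 was the leading ligand of VSMCs and Tgfb1 that of the other 3 classes. In VSMCs Tgfb2 made up 55.6 ± 9.35% (SD, n = 16) of the UMIs of the 3 ligands, against 28.8% in fibroblasts, 16.4% in endothelium and 2.54% in leukocytes. Tgfb1 made up 96.7% of ligand UMIs in leukocytes and 73.6% in endothelium. In fibroblasts it made up 43.1 ± 15.2% (SD, n = 16; 23.5 to 72.2%), and Tgfb3 held 28.1%. These are shares of tags, and tags at the 3' end do not grow in number with transcript length, but capture may differ between genes.

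**Figure D1:**
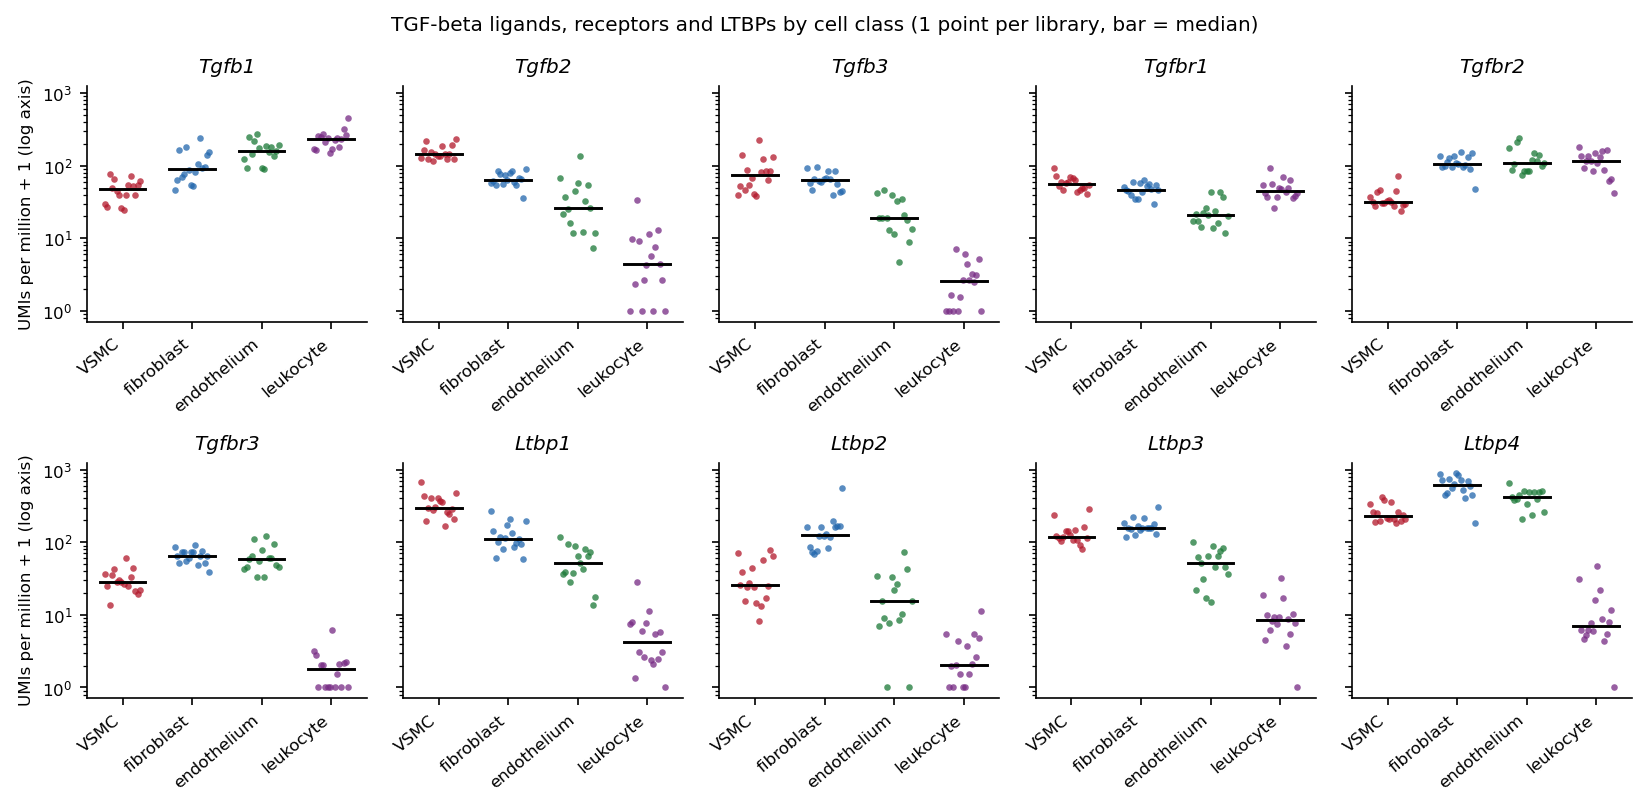
Level of each of the 10 genes (CPM of the class sum) in VSMCs, fibroblasts, endothelium and leukocytes, 1 point per library. Tgfb2 and Ltbp1 were highest in VSMCs and Tgfb1 in leukocytes, while Ltbp4 was highest in fibroblasts.

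Tgfb1, the ligand best known for its action on immune cells and fibrosis, ran from 23.3 to 76.9 CPM with a median of 46.6 CPM in VSMCs. Its medians were 88.2 CPM in fibroblasts (45.9 to 237), 159 CPM in endothelium (88.9 to 276) and 236 CPM in leukocytes (147 to 447). VSMCs were below fibroblasts in 16 of 16 libraries, by a log2 difference of -1.16 (SE 0.11, adjusted p = 5.19e-13; adjusted p-values here and below are from edgeR's quasi-likelihood test on the sums, with Benjamini-Hochberg adjustment over all genes tested). The order leukocytes, endothelium, fibroblasts, VSMCs held at every step, as neighbours differed by 1.00 and 0.52 log2 units (adjusted p = 3.51e-10 and 0.000151).

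Tgfb2, which is expressed by neural crest and second heart field derivatives of the outflow tract during development, had the reverse order. Its level in VSMCs ran from 114 to 233 CPM with a median of 143 CPM, and in fibroblasts from 34.8 to 90.1 CPM with a median of 63.5 CPM. The ranges did not overlap. The log2 difference was 1.25 (SE 0.19, adjusted p = 1.9e-07), with VSMCs higher in 16 of 16 libraries. Endothelium had a median of 24.9 CPM (6.29 to 133) and leukocytes 3.41 CPM (0 to 32.7, from 95 UMIs in all), and VSMCs stood above them by 2.57 (SE 0.26, adjusted p = 5.3e-12) and 4.62 (SE 0.30, adjusted p = 5.28e-19).

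Tgfb3 did not separate the mesenchymal classes. VSMCs ran from 36.7 to 223 CPM with a median of 74.1 CPM, fibroblasts from 38.2 to 95.9 CPM with a median of 61.9 CPM, and VSMCs were higher in 8 of 16 libraries (log2 difference 0.26, SE 0.19, adjusted p = 0.215). The difference passed at 0.74 (adjusted p = 0.03) in the 30 min digestions, at 0.57 (adjusted p = 0.0282) without the 4 libraries whose GFP went against the label, at 0.69 (adjusted p = 0.00335) without cells that held heart muscle or pericyte transcripts, and at 0.43 (adjusted p = 0.0409) without the 10-week Smad3+/+ replicate 1. Endothelium, at a median of 18 CPM, and leukocytes, at 1.58 CPM (41 UMIs in all), lay below both.

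The receptors were split in another way. Tgfbr2 was the receptor transcript of fibroblasts, endothelium and leukocytes, with 49.5%, 59.1% and 68.8% of the UMIs of the 3 receptors, while Tgfbr1 held the largest share in VSMCs, 47.3%, against 21.4% in fibroblasts. Tgfbr2, the ligand-binding kinase, ran from 23 to 71.6 CPM in VSMCs with a median of 30.8 CPM, against medians of 105.5 CPM in fibroblasts (47.4 to 153.6), 106.7 CPM in endothelium (73.8 to 237) and 115.5 CPM in leukocytes (40.6 to 179). VSMCs were the lowest class, 1.70 log2 units under fibroblasts (log2 difference -1.70, SE 0.11, adjusted p = 5.95e-19) in 16 of 16 libraries. Fibroblasts and endothelium did not differ beyond their spread (0.12, SE 0.12, adjusted p = 0.404).

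Tgfbr1, the signalling kinase, was the most evenly expressed member. Its medians were 55 CPM in VSMCs (39.1 to 90.6), 45.9 CPM in fibroblasts (28.5 to 63.3), 44.3 CPM in leukocytes (25 to 90.6) and 19.8 CPM in endothelium (11 to 42.6). VSMCs exceeded fibroblasts by 0.34 (SE 0.11, adjusted p = 0.00721), in 11 of 16 libraries, a call that was lost in the 30 min digestions (0.07, adjusted p = 0.763) and without the libraries whose GFP went against the label (0.28, adjusted p = 0.069). VSMCs and leukocytes gave a fitted difference of 0.00 (SE 0.13, adjusted p = 0.995), though VSMCs had the higher CPM in 11 of 16 libraries. The fitted value depends on scaling. Between these classes the median gene moved by 0.301 log2 units with no factor and by 0.158 with DESeq2 size factors. Endothelium was the lowest class, 1.20 below fibroblasts (SE 0.16, adjusted p = 2.22e-09).

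Tgfbr3, the co-receptor, was found in 3 classes and at a trace in leukocytes. Its medians were 63.7 CPM in fibroblasts (38 to 89.2), 58.4 CPM in endothelium (31.8 to 120) and 27.1 CPM in VSMCs (12.8 to 59.8). The leukocyte sums held 15 UMIs in all, with a mean level 1.48% of that in fibroblasts, where fibroblast markers stood at 1.16% by medians. VSMCs were below fibroblasts in 16 of 16 libraries, by -1.18 on the log2 scale (SE 0.10, adjusted p = 1.41e-14).

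**Figure D2:**
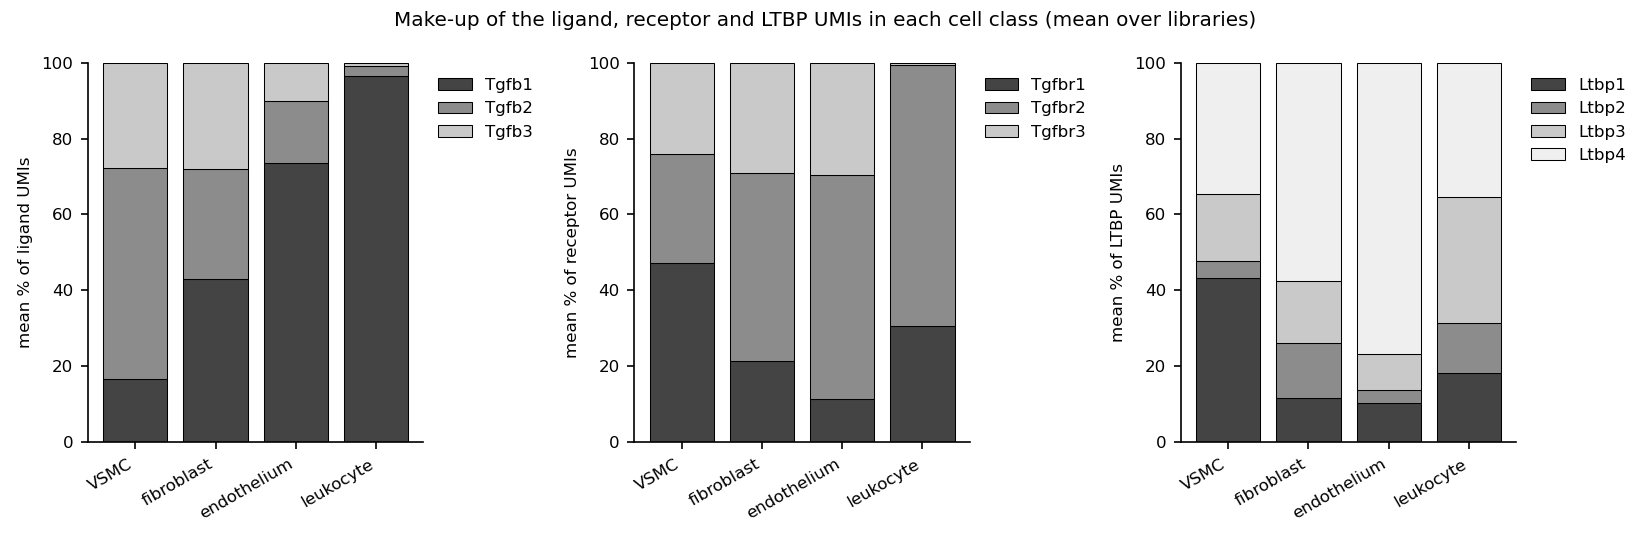
Mean share of the UMIs of the 3 ligands, the 3 receptors and the 4 latent binding proteins held by each gene in each class, over the libraries (16, or 15 for endothelium). Tgfb2, Tgfbr1 and Ltbp1 held the largest shares in VSMCs at 55.6%, 47.3% and 43.2%.

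The latent binding proteins were led by Ltbp1 in VSMCs and by Ltbp4 in fibroblasts and endothelium. Ltbp1 held 43.2% and Ltbp4 34.5% of the UMIs of the 4 genes in VSMCs, against 11.5% and 57.6% in fibroblasts and 10.2% and 76.9% in endothelium. In leukocytes, with few UMIs of any of them, Ltbp4 held 35.3% and Ltbp3 33.3%. Ltbp1 ran from 167 to 675 CPM in VSMCs with a median of 296 CPM, from 56.9 to 271 CPM in fibroblasts with a median of 110.5 CPM, and from 12.6 to 115 CPM in endothelium with a median of 50.8 CPM. VSMCs exceeded fibroblasts in 16 of 16 libraries, by 1.45 (SE 0.17, adjusted p = 1.65e-10), and endothelium by 2.74 (SE 0.21, adjusted p = 1.96e-16). With each cell thinned to 2000 UMIs, a UMI of Ltbp1 was found in 43.5% of VSMCs, 20.2% of fibroblasts, 6.1% of endothelial cells and 1.25% of leukocytes (means over libraries), against 83.3% of VSMCs before thinning.

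Ltbp4, which is needed for elastic fibre assembly as well as for TGF-beta storage, was the most abundant member in tags. Its median was 610 CPM in fibroblasts (182 to 890), 413 CPM in endothelium (206 to 651) and 226 CPM in VSMCs (185 to 417). Fibroblasts stood above VSMCs in 15 of 16 libraries (VSMC minus fibroblast -1.19, SE 0.16, adjusted p = 1.05e-08), and endothelium stood above VSMCs as well (VSMC minus endothelium -0.41, SE 0.17, adjusted p = 0.0305). In leukocytes the level was 1.81% of that in fibroblasts.

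Ltbp2, the member that does not carry latent TGF-beta, was a fibroblast transcript. Its median was 125 CPM in fibroblasts (67.3 to 555), 24.7 CPM in VSMCs (7.18 to 77.3), 14.6 CPM in endothelium (0 to 73) and 1.06 CPM in leukocytes (35 UMIs in all). VSMCs were lower in 16 of 16 libraries, by -2.16 (SE 0.19, adjusted p = 1.39e-14). The mean level in VSMCs was 21.9% of that in fibroblasts, and in endothelium 12.8%. For the fibroblast marker list the percents, taken from medians and not means, were 13.1% and 6.92%. That list holds collagen genes, of which Col3a1 was its highest gene in VSMCs at a mean of 836 CPM. The part that fibroblast RNA has in the lower levels was not tested.

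Ltbp3 differed least among the binding proteins. Its median was 118 CPM in VSMCs (79.5 to 282) and 157 CPM in fibroblasts (117 to 301), with VSMCs higher in 3 of 16 libraries (-0.31, SE 0.13, adjusted p = 0.0364). That call was lost in 25 of 29 alternative analyses, with values between -0.59 and -0.04. Endothelium had a median of 50.9 CPM and leukocytes 7.44 CPM.

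Between VSMCs and fibroblasts, 3 members were thus higher in VSMCs and 6 lower, beside 28.9% of the 11149 genes tested that were higher and 39.1% that were lower. The median log2 difference was -0.73 over the members and -0.09 over all genes. In the other pairs, 10 members differed between VSMCs and endothelium (65.7% of genes), 9 between VSMCs and leukocytes (79.7%), 9 between fibroblasts and endothelium (61.4%), 10 between fibroblasts and leukocytes (77.9%) and 10 between endothelium and leukocytes (67.8%). So the members' calls are read against classes in which most genes differ, and their directions rather than their number describe them.

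The other genes of the pathway, a list of 73 genes of which 71 were tested, had 19 higher and 30 lower in VSMCs than in fibroblasts. Activators and carriers of latent TGF-beta had 4 higher and 9 lower of 16 tested, matrix anchors 3 and 5 of 9, related receptors 2 and 4 of 11, signal mediators 0 and 3 of 8, feedback inhibitors 3 and 3 of 12, and target genes 7 and 6 of 15. The largest positive differences were those of Cnn1 at 6.57 (SE 0.43), Acta2 at 5.26 (SE 0.45) and Tagln at 4.52 (SE 0.44), which are contractile genes and also VSMC markers. The largest negative ones were those of Tgfbi at -6.47 (SE 0.29), a matrix protein induced by TGF-beta, Adamtsl2 at -6.16 (SE 0.19), which binds LTBP1 and fibrillin, and Fmod at -5.94 (SE 0.26), a proteoglycan that binds TGF-beta.

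The genes whose log2 CPM followed each member most closely over the 63 class-by-library sums were named as a description, since points share libraries and differ in depth. They were Nfkbia and Fxyd5 for Tgfb1 (Pearson r = 0.923 and 0.916), Ltbp1 and Map1b for Tgfb2 (0.89 and 0.87), and Meis2 and 1500009L16Rik for Tgfb3 (0.92 and 0.91). For the receptors they were Celf2 and Emb for Tgfbr1 (0.858 and 0.81), Man1a and Pltp for Tgfbr2 (0.887 and 0.882), and Wwtr1 and Lama4 for Tgfbr3 (0.951 and 0.941). For the binding proteins they were Cped1 and Twsg1 for Ltbp1 (0.952 and 0.95), Col1a1 and Col3a1 for Ltbp2 (0.892 and 0.877), Gstt1 and Twsg1 for Ltbp3 (0.94 and 0.936), and Nfib and Timp3 for Ltbp4 (0.967 and 0.963). Tgfb2 and Ltbp1 were the one pair of members in which a member was among the most alike genes.

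VSMCs themselves differed in these genes. The study described VSMC subclusters by Notch3 and Enpep, by Ptprz1 and Tes, or by Mgp. Here VSMCs with more Notch3 plus Enpep UMIs (909 cells, 16 libraries) were compared with those with more Ptprz1 plus Tes UMIs (5733 cells, 14 libraries with at least 10 such cells) within libraries. VSMCs with equal sums were left out, and Mgp was not used, so these subsets are not the study's subclusters. Notch3/Enpep VSMCs were higher in Tgfb1 and Tgfb3 and lower in Tgfbr1, Ltbp1, Ltbp2 and Ltbp3, that is 2 members higher and 4 lower, beside 12.2% of the 6500 genes tested that were higher and 13.3% that were lower.

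Tgfb3 showed the largest positive difference of the members. Its level was 135 ± 87.8 CPM (SD, n = 16; 55.5 to 416) in the Notch3/Enpep VSMCs and 66.7 ± 34.1 CPM (SD, n = 14; 32.3 to 143) in the Ptprz1/Tes VSMCs, with a log2 difference of 0.94 (SE 0.14, adjusted p = 9.14e-05) and the same direction in 13 of 14 libraries. Tgfb1 went the same way, at 58.5 ± 24.6 CPM (SD, n = 16) and 35 ± 11.8 CPM (SD, n = 14), a difference of 0.53 (SE 0.10, adjusted p = 8e-05) in 13 of 14 libraries. Tgfb2, the leading ligand of VSMCs, had 160 ± 49.9 CPM (SD, n = 16) and 166 ± 52.1 CPM (SD, n = 14) and passed no test (0.03, SE 0.11, adjusted p = 0.916).

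The binding proteins went the other way. Ltbp1 stood at 233 ± 80.2 CPM (SD, n = 16) in Notch3/Enpep VSMCs and 359 ± 133 CPM (SD, n = 14) in Ptprz1/Tes VSMCs, a difference of -0.61 (SE 0.06, adjusted p = 6.11e-10) in 14 of 14 libraries. Ltbp3 stood at 91.8 ± 44.8 CPM (SD, n = 16) and 153 ± 50.3 CPM (SD, n = 14), a difference of -0.64 (SE 0.08, adjusted p = 2.41e-08), also in 14 of 14. Ltbp2, at 13.8 ± 17.8 CPM (SD, n = 16) and 43.1 ± 30.9 CPM (SD, n = 14), differed by -1.15 (SE 0.28, adjusted p = 0.00635) in 14 of 14, but its call was lost without the libraries whose GFP went against the label (-1.10, adjusted p = 0.0688). Ltbp4 was not called (-0.18, SE 0.12, adjusted p = 0.341). It was called, at -0.76 (adjusted p = 0.000874), in the 30 min digestions and, at -0.23 (adjusted p = 0.00732), with no filter on low counts.

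**Figure D3:**
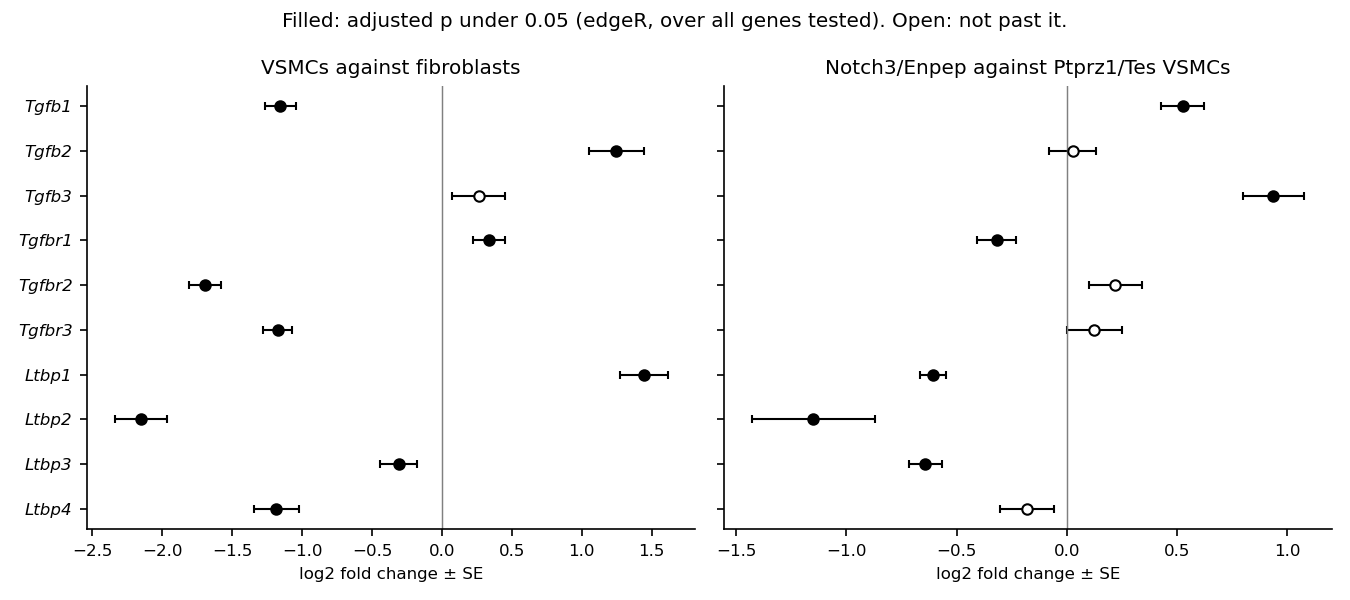
Log2 difference between VSMCs and fibroblasts and between Notch3/Enpep and Ptprz1/Tes VSMCs for each member, with bars of 1 standard error and filled points for an adjusted p under 0.05. Tgfb2 and Ltbp1 were above 0 in the first comparison at 1.25 and 1.45, while Tgfb1 and Tgfb3 were above 0 in the second at 0.53 and 0.94.

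Of the receptors, Tgfbr1 was lower in Notch3/Enpep VSMCs, at 45.2 ± 10.9 CPM (SD, n = 16) against 61.1 ± 13.8 CPM (SD, n = 14), a difference of -0.32 (SE 0.09, adjusted p = 0.00629) in 13 of 14 libraries. The call was lost in 3 of 28 alternative analyses, namely the 30 min digestions (adjusted p = 0.166), the 60 min digestions (adjusted p = 0.0528) and VSMCs without heart muscle or pericyte transcripts (adjusted p = 0.29). Tgfbr2 (0.22, SE 0.12, adjusted p = 0.199) and Tgfbr3 (0.12, SE 0.12, adjusted p = 0.541) were not called. The subsets also differed in the summed level of genes that respond to tissue digestion (Fos, Jun, Egr1 and others), which had a median of 7641 CPM (4093 to 15110) in Notch3/Enpep VSMCs and 3787 CPM (1310 to 7193) in Ptprz1/Tes VSMCs, in fibroblast markers, at 1767 and 2336 CPM, and in endothelial markers, at 73.7 CPM (35.5 to 132.2) and 23.9 CPM (15.3 to 45.8), where Kdr was at 0 in the Notch3/Enpep sums and Esam had the highest level. Their part in the members' differences was not tested.

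Among the 52 pathway genes tested between the subsets, 14 were higher and 17 lower in Notch3/Enpep VSMCs. Thbs1, which activates latent TGF-beta, was the highest at 3.44 (SE 0.32), followed by Junb at 1.74 and Lrrc32, a carrier of latent TGF-beta on cell surfaces, at 1.11. Junb is also one of the digestion response genes, which were higher in the same subset, and the part of digestion in these differences was not tested. Postn at -1.52, Mmp2 at -1.17 and Eln at -1.06 were the lowest.

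The comparison of genotypes asked whether loss of Smad3 in VSMCs changed these transcripts. No member was called in VSMCs at either time. With no filter on low counts, Ltbp2 alone was called, at 10 weeks (-1.30, SE 0.23, adjusted p = 4.04e-05) and in the difference between 18 and 10 weeks (1.72, SE 0.31, adjusted p = 3.23e-05). All 10 members were fitted below 0 at 10 weeks and 4 of them above 0 at 18 weeks, but edgeR gave each an adjusted p of 1. The median difference over all genes was -0.00716 at 10 weeks and -0.0117 at 18 weeks, and the share of genes fitted below 0 was not counted. The members come from the same libraries, so their signs are not separate observations. At 10 weeks, 0% of the 11711 genes tested were called (0 genes, with 215 at an unadjusted p under 0.05 and 1 called by DESeq2), and at 18 weeks 0.0342%, or 4 genes, of which none was a member (550 at an unadjusted p under 0.05 and 8 called by DESeq2, no member among them). The 4 genes were the tracer transcript GFP, Pmepa1, Prph and Heyl. Standard errors of the members at 18 weeks ran from 0.14 to 0.66 on the log2 scale, which sets the size of difference that these libraries could show.

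**Figure D4:**
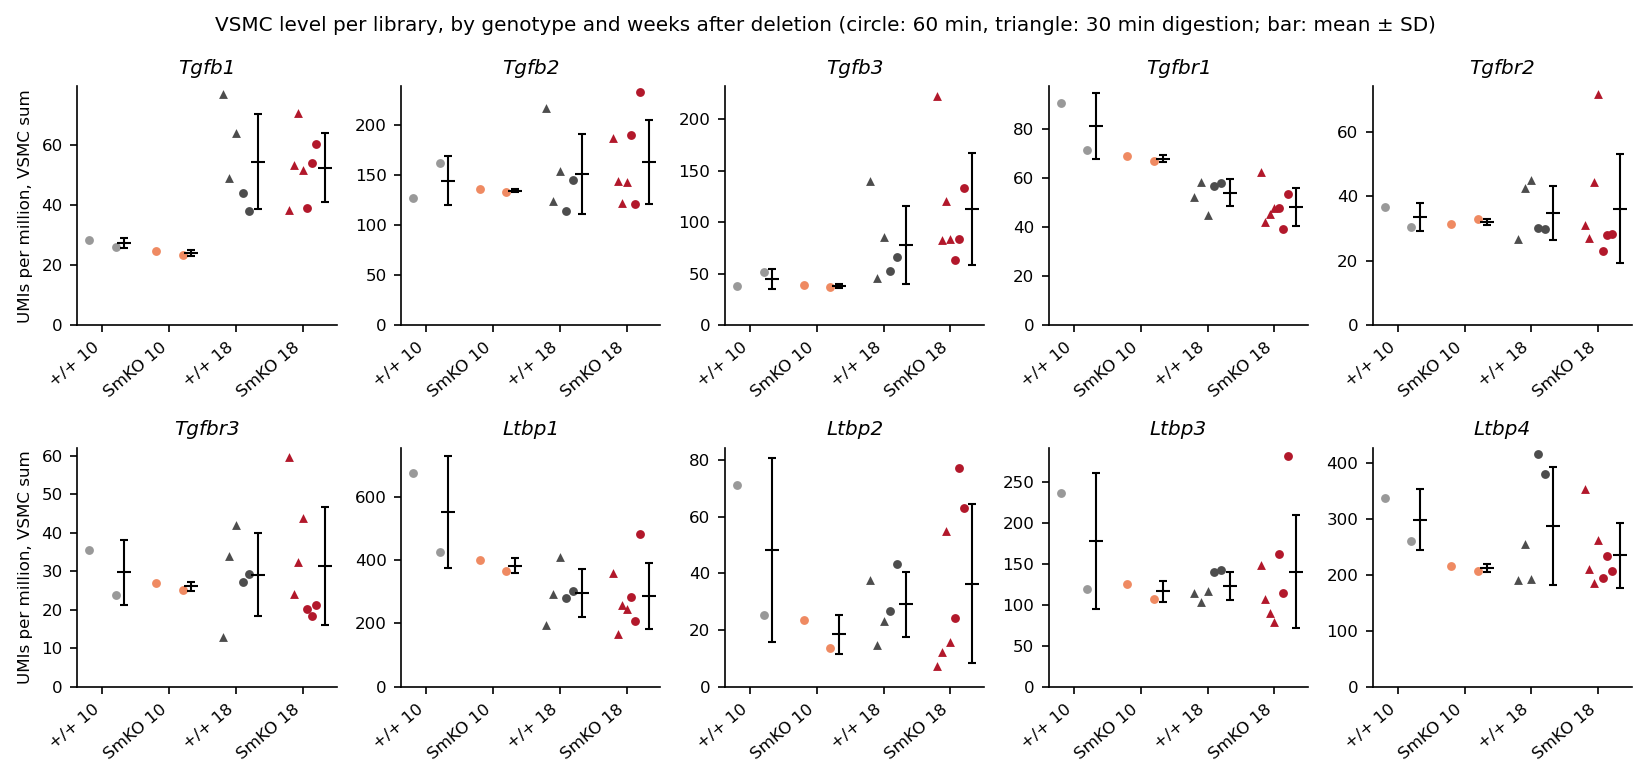
Level of each member (CPM of the VSMC sum) in the 4 groups of genotype and time, 1 point per library. At 10 weeks, 5 of 10 members had the 2 Smad3+/+ libraries on one side of the 2 Smad3SmKO libraries, beside 28.4% of the 11711 genes tested, and at 18 weeks 0 of 10 had groups apart, beside 0.213%.

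At 10 weeks the binding proteins had the largest fitted differences. Ltbp1 was at 675 and 426 CPM in the 2 Smad3+/+ libraries and at 399 and 365 CPM in the 2 Smad3SmKO libraries (log2 difference -0.49, SE 0.25, unadjusted p = 0.0629 by edgeR). Ltbp3 was at 237 and 120 CPM and at 126 and 107 CPM (-0.56, SE 0.25, unadjusted p = 0.0351 by edgeR). The groups of Ltbp3 overlapped and those of Ltbp1 did not, although 1 Smad3+/+ library, replicate 1, set most of the gap in both. Ltbp4 differed by -0.47 (SE 0.23) and Ltbp2, at 71.1 and 25.1 CPM against 23.4 and 13.5 CPM, by -1.31 (SE 0.75, or 0.23 with no filter). The values of Tgfb1, Tgfb2, Tgfb3, Tgfbr1, Tgfbr2 and Tgfbr3 lay between -0.23 and -0.04, with each SE at least 0.17. In the same 10-week VSMC sums, the digestion response genes were at 3088 to 4790 CPM in Smad3+/+ and 1880 to 2143 CPM in Smad3SmKO, fibroblast markers at 3071 to 3452 CPM and 2141 to 2479 CPM, and leukocyte markers at 25 to 92.7 CPM and 163.5 to 186.9 CPM, none of them overlapping. Of all genes tested there, 28.4% did not overlap either. VSMC, endothelial, heart muscle, pericyte and Schwann cell markers overlapped. Col1a1, Col1a2 and Col3a1 of the fibroblast list and Junb of the digestion list are also in the list of TGF-beta target genes. The part of these lists in the members' values was not tested.

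At 18 weeks, Tgfbr1 had the lowest p of the members, with 52.3, 58.2, 45.1, 56.5 and 58.1 CPM in Smad3+/+ and a lowest, median and highest of 39.1, 47.7 and 62.2 CPM in Smad3SmKO (-0.26, SE 0.14, unadjusted p = 0.083 by edgeR). The groups overlapped, and 3 of the 4 batches with mice of each genotype gave a difference below 0. Tgfb3 was at 140, 45.8, 85.7, 52.9 and 66 CPM in Smad3+/+ and at 62.9, 83.6 and 223 CPM (lowest, median, highest) in Smad3SmKO (0.39, SE 0.31, unadjusted p = 0.232 by edgeR). Of the other members, Ltbp2 had a value of 0.45 (SE 0.66), and the rest lay between -0.23 and 0.14. The difference between the effects at 18 and 10 weeks was called for no member, with 0.00854% of genes called (1 gene, GFP, with 283 at an unadjusted p under 0.05 and 1 called by DESeq2). The largest was that of Ltbp2 at 1.76 (SE 1.00).

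Pmepa1, a feedback inhibitor of TGF-beta signalling in the pathway list, was the listed gene that passed in the same sums. At 18 weeks it was at 1540, 1110, 881, 1450 and 1378 CPM in Smad3+/+ VSMCs and at 515, 720 and 814 CPM (lowest, median, highest) in Smad3SmKO VSMCs. The groups did not overlap, and the difference was -1.01 (SE 0.14, adjusted p = 0.00487). It was below 0 within each of the 4 batches with both genotypes. In the same sums pericyte markers had a median of 189.3 CPM (135 to 435) in Smad3+/+ and 512.9 CPM (231.5 to 1481) in Smad3SmKO, and heart muscle markers 326.3 CPM (177 to 359) and 144.5 CPM (45.5 to 553). Without cells that held 2 or more UMIs of either list the difference was -0.89 (SE 0.15, adjusted p = 0.0138). At 10 weeks it was at 1124 and 1327 CPM against 766 and 697 CPM (-0.74, SE 0.21, adjusted p = 1). The 18-week call was lost in 5 of 29 alternative analyses, namely the 60 min digestions alone (-0.78, adjusted p = 0.359), no batch term (-0.88, adjusted p = 0.297), without the libraries whose GFP went against the label (-1.10, adjusted p = 0.069) and without the 18-week Smad3+/+ replicate 1 (-0.92, adjusted p = 0.0989) or replicate 2 (-0.98, adjusted p = 0.0502). Of the 67 pathway genes tested in VSMCs, 0 were called at 10 weeks (6 at an unadjusted p under 0.05, Ldlrad4 among them at -0.68), and 1, Pmepa1, at 18 weeks.

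**Figure D5:**
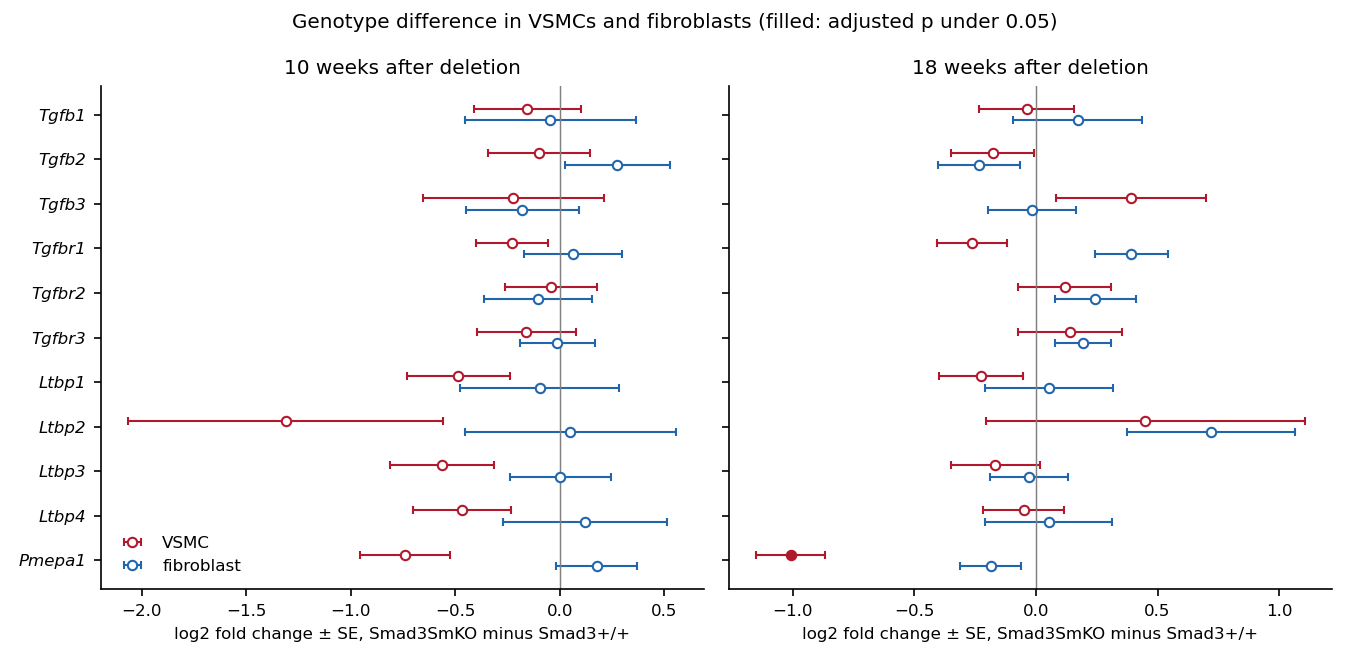
Log2 difference between Smad3SmKO and Smad3+/+ for each member and for Pmepa1 in VSMCs and fibroblasts at 10 and 18 weeks, with bars of 1 standard error and a filled point for an adjusted p under 0.05. Pmepa1 in VSMCs at 18 weeks is the filled point, at -1.01, while no member passed the threshold, and the widest bar among the VSMC values at 18 weeks, that of Ltbp2, was 0.66.

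Fibroblasts, which the Cre does not target, gave no called gene at 10 weeks (0% of 14343 genes; 122 at an unadjusted p under 0.05 and 1 called by DESeq2) or at 18 weeks (0%; 346 and 3). Tgfbr1 at 18 weeks stood at 41.5 ± 10.5 CPM (SD, n = 5) in Smad3+/+ and 48.9 ± 10.8 CPM (SD, n = 7) in Smad3SmKO, with a fitted difference of 0.39 (SE 0.15, unadjusted p = 0.0232 and adjusted p = 1 by edgeR) that was above 0 in 4 of 4 batches, between 0.11 and 0.67. Tgfb1 (0.17, SE 0.26), Tgfbr3 (0.19, SE 0.12) and Ltbp2 were likewise above 0 in 4 of 4 batches. The share of all genes with the same sign in every batch was not counted, so these signs do not mark out the members. Ltbp2 had 0.72 (SE 0.34, unadjusted p = 0.0608 by edgeR), and the other members lay between -0.23 and 0.24. VSMC markers in the same fibroblast sums had a median of 1227 CPM (623 to 2067) in Smad3+/+ and 3150 CPM (646 to 13240) in Smad3SmKO, and their part in these values was not tested. Among the pathway genes, Ctgf and Cd109 had the smallest p at 18 weeks, with 0.50 and 0.44, and Cd109 and Fbn2 at 10 weeks, with 0.32 and 0.87, none of them called.

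The genotype effect in VSMCs minus that in fibroblasts was tested directly, with 0% of 14196 genes called at 10 weeks (213 at an unadjusted p under 0.05 and 1 called by DESeq2) and 0.00704% at 18 weeks (1 gene, Pmepa1, at -0.84, SE 0.12, adjusted p = 0.0491). Tgfbr1 had the smallest p of the members at 18 weeks, at -0.71 (SE 0.20, unadjusted p = 0.00242 and adjusted p = 1 by edgeR). At 10 weeks Ltbp3 had the smallest, at -0.56 (SE 0.20, unadjusted p = 0.0139 and adjusted p = 1 by edgeR).

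Endothelium and leukocytes at 18 weeks gave no called gene either, 0% of 8094 genes (269 at an unadjusted p under 0.05 and 0 called by DESeq2) and 0% of 8832 genes (123 and 2). Endothelial members lay between -0.61 for Tgfb3 (SE 0.43) and 1.18 for Ltbp2 (SE 0.75). In leukocytes 6 members passed the filter on low counts, with values from -0.36 for Tgfb2 (SE 0.77) to 1.03 for Ltbp4 (SE 0.48, unadjusted p = 0.0449 and adjusted p = 1 by edgeR). Tgfb3, Tgfbr3, Ltbp1 and Ltbp2 were too low to be tested there. Of the pathway genes, Itgb5 (0.99) and Postn (-1.72) in endothelium, and Ctgf (0.70) and Eng (0.57) in leukocytes, had the smallest p and were not called.

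Within the VSMC subsets at 18 weeks no member was called. The paper, with a rank test over cells, reported Tgfb2 and Tgfb3 as upregulated in its subcluster enriched in Notch3 and Enpep. In the Notch3/Enpep VSMCs here, Tgfb3 was at 125 ± 58.8 CPM (SD, n = 5) in Smad3+/+ and 174.5 ± 112.5 CPM (SD, n = 7) in Smad3SmKO. Tgfb2 was at 164 ± 73.9 CPM (SD, n = 5) and 164 ± 46.4 CPM (SD, n = 7). One gene of 6833 was called in Notch3/Enpep VSMCs (0.0146%), Pmepa1 at -0.95 (adjusted p = 0.0183), and 1 gene of 11240 in Ptprz1/Tes VSMCs (0.0089%), GFP, with Pmepa1 at -1.06 (adjusted p = 0.0615). GFP is the tracer transcript. Kept cells held 0 GFP UMIs in every 18-week Smad3+/+ library, and 372, 82 and 172 in 18-week Smad3SmKO replicates 5, 6 and 7. Ltbp4 in the Ptprz1/Tes VSMCs had the smallest p of the members, at -0.55 (SE 0.17, unadjusted p = 0.00493 and adjusted p = 0.538 by edgeR), and Tab1 was the pathway gene beside Pmepa1 with the smallest p, at -1.79. The difference in genotype effect between the subsets called 0.0116% of 8627 genes (1 gene, Igkc) and no member, with Tgfb3 at -0.57 (SE 0.31) and Ltbp2 at 1.19 (SE 0.87). Ctgf (-0.50) and Col1a2 (0.83) had the smallest p of the pathway genes there and were not called.

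Time after deletion and batch cannot be told apart, since the 10-week libraries were all of batch 4 and no other library was. They were digested for 60 min, as were 5 of the 12 libraries of 18 weeks. The members' levels are therefore given for this comparison as values only. Tgfb1 in VSMCs was at 23.3 to 28.4 CPM in the 4 libraries of 10 weeks and at 38.1 to 76.9 CPM in the 12 of 18 weeks, with no overlap, and at 38.1 to 60.4 CPM in the 5 of these digested for 60 min. Tgfbr1 in VSMCs was at 66.9 to 90.6 CPM and at 39.1 to 62.2 CPM, again with no overlap and in the other direction, and at 39.1 to 58.1 CPM in the 5. Tgfb1 in fibroblasts was at 45.9 to 62 CPM and at 69.5 to 237 CPM, and at 85.6 to 178 CPM in the 5. In both classes the ranges of every other member overlapped between the times, as for Tgfb2 in VSMCs at 127 to 161 CPM and 114 to 233 CPM. The share of all genes whose ranges lay apart in the same libraries was not counted, so these values do not mark out the members.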

How the data were processed

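Single-cell RNA was counted per gene and cell barcode (10x 3' v3), 1 library per mouse. The authors deposited raw UMI counts, made with Cell Ranger 6 on mm10 with GFP added, per the labels (the file headers name another version), and used Seurat 4. Sorted live cells were kept here when they had over 600 but under 6000 genes detected, a UMI total above 2000 but below 50000, and a mitochondrial share below 25%. No doublet caller was run, and cells meeting several class rules (2442) or none (1642) were left out. UMIs were summed per library and class (at least 10 cells), and the sums held between 98546 and 37676634 UMIs. A level of 0 in a sum allows up to 3 counts, and such limits cover counting error only. The sum of 3 endothelial cells in Smad3SmKO 18-week replicate 7 was dropped.

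Sums were tested with edgeR 4.0.16 (R 4.3.3; TMM scaling, filterByExpr, robust quasi-likelihood test) over all genes that passed the filter, with Benjamini-Hochberg adjustment and a threshold of 0.05. Classes and subsets were compared within libraries, and genotypes with batch as a term. DESeq2 1.42.0 served as an alternative. Nothing in the labels says more than that each library is 1 mouse, and p-values measure the spread between these libraries. Levels and figures were made in Python 3.11.15 (pandas 2.3.3, scipy 1.17.1, numpy 2.4.6, matplotlib 3.10.9). The fits were tested on simulated counts with known changes. Of genes changed by 1 log2 unit between genotypes in VSMCs, 52.7% were called at 18 weeks and 41.4% at 10 weeks. Of those changed by 2 log2 units, 86.6% and 87.6% were called. False calls were 7 of 140 at 18 weeks and 16 of 142 at 10 weeks.

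Members and lists were chosen with earlier results of these data known. All members are named. Of the pathway list, those passing, or else the 2 with the smallest p, are named per genotype comparison, the 3 largest in each direction between VSMCs and fibroblasts, and for each member the 2 genes most alike. Pathway genes named between the VSMC subsets, the largest in each direction, were picked after their values were seen. Alternatives were other scalings and filters, other cell rules, DESeq2, each digestion time or genotype alone, no batch term, each library left out, and, added after seeing the data, no cells with heart muscle or pericyte transcripts and no libraries whose GFP went against their label.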

Additional observations from a re-analysis of the deposited data

Results flagged for a closer look

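A library was set apart in its group when the gap to its nearest neighbour was a large share of the group's range (Dixon's test at 95%). Chance sets apart about 1 in 20 groups, and 2 of the 40 groups tested were set apart, both by Smad3SmKO 18-week replicate 7. Ltbp3 in its VSMC sum stood at 281.6 CPM (2374 UMIs, 369 cells), against a group median of 114.7 CPM and 162.4 CPM in the nearest library. Ltbp2 in its fibroblast sum stood at 554.9 CPM (2573 UMIs, 192 cells), against a group median of 166.3 CPM and 195.7 CPM in the nearest library. This library belongs to batch 5, which held Smad3SmKO mice alone.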

How the results depend on the processing

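Over 30 alternative settings, 1447 values of members, and of Pmepa1 in VSMCs at 18 weeks, were compared with the reported ones. Of these 58 changed sign, none of them past the threshold. The values were those between VSMCs and fibroblasts, between the VSMC subsets, and for genotype in VSMCs at both times and in fibroblasts at 18 weeks. Calls over the 6 pairs of classes numbered 57 of 60 and ran from 47 to 57. The lowest count came with cells counted in every class whose rule they met. Between the VSMC subsets 6 members were called, with 4 to 7 in the alternatives. With no filter on low counts, 1 member, Ltbp2, was called in VSMCs at 10 weeks (-1.30, adjusted p = 4.04e-05), in the difference between 18 and 10 weeks (1.72, adjusted p = 3.23e-05) and in the VSMC minus fibroblast effect at 10 weeks (-1.31, adjusted p = 0.00132), and in the 30 min digestions 1 member, Ltbp2 again, in that effect at 18 weeks (-1.60, adjusted p = 0.0313). The cause was not tested.

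Values with the other sign were as follows. Tgfb3 between VSMCs and fibroblasts was -0.0337 in Smad3+/+ libraries alone. Between the subsets, Tgfb2 was -0.0192 with no filter, -0.019 with sums of at least 30 cells, -0.167 in the 30 min digestions, -0.00849 without the libraries whose GFP went against their label and -0.0975 without heart muscle or pericyte transcripts, and Ltbp4 was 0.0411 in the 60 min digestions. For genotype in VSMCs, Tgfbr2 was 0.0214 at 10 weeks with stricter class rules. At 18 weeks the 60 min digestions gave 0.512 for Tgfb1, 0.0185 for Tgfb2 and -0.5 for Tgfbr3. No batch term gave 0.0401 for Tgfb1, 0.133 for Tgfb2, -0.0972 for Tgfbr2, -0.127 for Tgfbr3 and 0.243 for Ltbp3. VSMCs without heart muscle or pericyte transcripts gave 0.0881 for Tgfb1 and 0.149 for Tgfb2, and sums of at least 30 cells gave -0.0152 for Tgfbr2. The 30 min digestions gave -0.525 for Ltbp2 and 0.261 for Ltbp4, the libraries without GFP conflict -0.577 and 0.211, and cells counted in every class 0.0313 for Ltbp4. In fibroblasts at 18 weeks, Tgfb3 was 0.108 in the 30 min digestions and 0.124 without the GFP conflict, Ltbp1 was -0.625 and Ltbp4 -0.254 in the 60 min digestions, no batch term gave -0.0246 for Tgfbr2, 0.208 for Ltbp3 and -0.14 for Ltbp4, and Ltbp3 was 0.0235 without heart muscle or pericyte transcripts.

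Leaving out each library in turn moved Tgfb2 between the subsets from -0.00814 to 0.113. In VSMCs at 10 weeks the ranges were -0.369 to 0.237 for Tgfb2, -0.539 to 0.157 for Tgfb3, -0.085 to 0.00545 for Tgfbr2 and -0.294 to 0.031 for Tgfbr3, where the lone library left is assumed to vary like the others. In VSMCs at 18 weeks they were -0.424 to 0.143 for Tgfb1, -0.273 to 0.091 for Tgfb2, -0.0158 to 0.251 for Tgfbr2, -0.107 to 0.587 for Tgfbr3, -0.594 to 0.82 for Ltbp2 and -0.273 to 0.212 for Ltbp4. In fibroblasts at 18 weeks they were -0.136 to 0.12 for Tgfb3, -0.159 to 0.313 for Ltbp1, -0.0635 to 0.0181 for Ltbp3 and -0.0925 to 0.17 for Ltbp4. Scaling with no factor moved the median gene between endothelium and leukocytes by 0.506 on the log2 scale. Batch 5 held 1 genotype, so it informs the spread alone, and small sums limit endothelium and leukocytes most.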

Other observations

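Across single cells, the same split of ligands and binding proteins appeared as shares of cells with a UMI, once every cell was thinned to 2000 UMIs. A Tgfb1 UMI was found in 33.9% of leukocytes, 26.1% of endothelial cells, 15.1% of fibroblasts and 8.52% of VSMCs (means over libraries). A Tgfb2 UMI was found in 24.2% of VSMCs, 10.7% of fibroblasts, 4.43% of endothelial cells and 0.859% of leukocytes. For Tgfb3 the share was 13.7% in VSMCs and 11.7% in fibroblasts. For Ltbp4 it was 64.3% in fibroblasts, 45.2% in endothelium, 39.7% in VSMCs and 2.29% in leukocytes.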
